A study of Mus musculus with 20 samples.

Results

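Transcript levels of 9 lysosomal genes were described in mouse hearts: the cathepsins Ctsa, Ctsb, Ctsd, Ctsh, Ctsk, Ctsl and Ctss, and the membrane proteins Lamp1 and Lamp2. All 13 probe sets whose only platform gene symbol is one of these 9 genes were taken. The array has 12422 probe sets that are not controls, and those with a single symbol name 8251 genes. Ctsb had 4 probe sets and Lamp2 had 2. Of the 13 probe sets, 12 were bright enough to be tested, and 1 probe set of Ctsb was left out as dim. The animals were 20 male mice of a hybrid of the B6 and C3H strains, bought young, kept 1 to a cage and free of specific pathogens. They formed 4 groups of 5, with 1 array per animal. Alpha-tocopherol mice were 30 months old and had eaten 1000 mg/kg alpha-tocopherol from 15 months of age. Alpha- plus gamma-tocopherol mice were 30 months old and had eaten 500 mg/kg of each form from 15 months of age. Old controls, at 30 months, and young controls, at 5 months, had eaten the control diet. The labels call the mice first-generation (F1) hybrids, except old controls 1 and 4, whose labels give the hybrid without that mark. Tocopherols are forms of vitamin E. Because the mixture holds less alpha-tocopherol than the single supplement as well as added gamma-tocopherol, the effects of dose and of form cannot be told apart.

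Lysosomes are acidic organelles that break down proteins, lipids and sugars taken up by the cell or delivered by autophagy. Cathepsins are their proteases: Ctsb, Ctsh, Ctsk, Ctsl and Ctss encode cysteine proteases, while Ctsd encodes an aspartic protease and Ctsa a serine carboxypeptidase. Lamp1 and Lamp2 are heavily glycosylated proteins of the lysosomal membrane, and loss of human LAMP2 causes Danon disease, with thickened heart muscle and stored autophagic vacuoles. Many lysosomal genes carry E-boxes near their start sites, which are bound by TFEB and related transcription factors.

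To show how the members differ in that respect, promoter windows from RefSeq (GRCm38.p6), running from 250 bases before to 50 bases after a gene's start, were searched for E-boxes. The search found 8 windows for 7 of the 9 genes. The motif CACGTG, which reads the same on both strands, lay in windows of 4 member genes (Ctsa, Ctsd, Ctsl and Lamp1), and in 7.15% of all 32851 windows. The longer TCACGTGA, which contains the first motif, lay in windows of 2 member genes (Ctsa and Ctsd), and in 0.974% of all windows. No match to either motif was found in the windows of Ctsk, Ctss and Lamp2. A still longer motif, TCACGTGA preceded by G and followed by C, lay in windows of 0 member genes, and in 0.326% of all windows. The windows of Ctsa at chr2:164833523-164833822 (plus strand), Ctsd at chr7:142387778-142388077 (minus strand), Lamp1 at chr8:13158911-13159210 (plus strand) and Ctss at chr3:95526536-95526835 (plus strand) are printed 5′ to 3′, with the E-boxes in capitals. They were chosen to set 3 E-box promoters beside that of Ctss, the member with the widest range among the 12 tested probe sets.
Ctsa: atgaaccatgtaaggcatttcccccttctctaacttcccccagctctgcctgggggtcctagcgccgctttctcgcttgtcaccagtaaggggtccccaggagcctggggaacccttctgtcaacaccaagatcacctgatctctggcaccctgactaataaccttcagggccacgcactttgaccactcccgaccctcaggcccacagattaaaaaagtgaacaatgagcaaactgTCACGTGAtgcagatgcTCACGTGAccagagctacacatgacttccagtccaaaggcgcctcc
Ctsd: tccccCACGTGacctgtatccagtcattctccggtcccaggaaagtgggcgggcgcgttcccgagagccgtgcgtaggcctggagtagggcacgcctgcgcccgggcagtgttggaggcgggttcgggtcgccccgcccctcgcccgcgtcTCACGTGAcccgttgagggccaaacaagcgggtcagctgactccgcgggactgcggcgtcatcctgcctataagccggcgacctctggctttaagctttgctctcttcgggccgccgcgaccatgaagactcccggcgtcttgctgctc
Lamp1: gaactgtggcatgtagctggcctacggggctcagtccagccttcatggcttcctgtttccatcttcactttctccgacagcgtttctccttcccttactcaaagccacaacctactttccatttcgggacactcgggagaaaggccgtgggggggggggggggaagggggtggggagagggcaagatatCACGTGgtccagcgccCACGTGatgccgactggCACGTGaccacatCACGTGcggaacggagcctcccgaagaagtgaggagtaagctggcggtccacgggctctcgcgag
Ctss: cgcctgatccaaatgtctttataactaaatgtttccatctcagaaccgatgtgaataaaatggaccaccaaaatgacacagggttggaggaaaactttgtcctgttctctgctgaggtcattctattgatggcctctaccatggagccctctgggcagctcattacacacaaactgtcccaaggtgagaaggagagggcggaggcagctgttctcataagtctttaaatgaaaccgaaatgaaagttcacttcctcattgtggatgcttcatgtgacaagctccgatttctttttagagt
Ctsa carries 2 copies of TCACGTGA within a few bases of its start, and another Ctsa window, at chr2:164832622-164832921, has no E-box. Ctsd has 2 copies of CACGTG, of which 1 lies in TCACGTGA. Lamp1 has 4 copies of CACGTG, and Ctsl, not printed, has 1. These matches are descriptions of sequence, and no binding was measured here.

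The deposited values are linear intensities that the submitters had scaled. Each difference below is a difference of mean log2(intensity + 58), with 5 animals in each group. It is given ± its standard error from limma, which takes the spread from all 4 groups and not only from the groups compared. The median standard error of a difference over all tested probe sets was 0.179, and the number of arrays limits the precision. A probe set was called where the adjusted p from limma, with Benjamini-Hochberg adjustment over the whole array, was below 0.05. Heart muscle markers were bright on every array: the summed intensity of 10 cardiomyocyte genes was 829898 to 1014835 in alpha-tocopherol hearts, 624876 to 850422 in alpha- plus gamma-tocopherol hearts, 715501 to 838135 in old controls and 684249 to 878383 in young controls. The alpha-tocopherol arrays stood apart in bacterial controls, which are added to the sample, and in ribosomal RNA signal. Their hybridization controls averaged 13.59 ± 0.17 on the log2 scale, against 12.74 ± 0.15 in old controls (SD, n = 5 each, two-sided exact permutation p = 0.0079, the smallest that 5 against 5 arrays can give). Their 18S ribosomal RNA probe sets averaged 12.39 ± 0.21, against 10.74 ± 0.50 in old controls (SD, n = 5 each, exact permutation p = 0.0079). In both measures every alpha-tocopherol array lay above every array of the other groups. In comparisons with alpha-tocopherol hearts, the control level therefore goes with the group. Fits that hold a level as a covariate are given below, but they cannot separate it from the supplement. A call lost in them does not decide whether the level plays a part in the values, which was not tested.

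In alpha-tocopherol hearts, Ctsa, Ctsb, Ctss and Lamp2 were lower than in old controls and Ctsd was higher, each at 1 probe set. That is 5 of 12 tested member probe sets (41.7%), against a background of 21.7% over all tested probe sets. The background was 8.94% for calls that were higher, where 1 member was called, and 12.8% for calls that were lower, where 4 members were called. The median member difference was -0.26, against -0.02 over all probe sets, and 11 of the 12 differences were below 0. Against young controls, 3 member probe sets were called in alpha-tocopherol hearts, all lower: that of Ctsa and both of Lamp2 (25% of 12, against a background of 15.6% in either direction and 8.87% lower). In bulk heart tissue, fewer cells of a type and less RNA per cell cannot be told apart. These comparisons share their arrays, so that they are not independent of each other.

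In the other 4 comparisons, limma called 0 of the 12 member probe sets. In alpha- plus gamma-tocopherol hearts against old controls the background of calls was 6.43%. There 5 members had an unadjusted p below 0.05, as did 22.9% of all tested probe sets. In the mixture against alpha-tocopherol alone the background of calls was 0.564%. An unadjusted p below 0.05 was found for 2 members and for 15.9% of all tested probe sets. In old against young controls the background of calls was 4.94%, and 3 members had an unadjusted p below 0.05, beside 18% of all tested probe sets. In the mixture against young controls the background of calls was 5.55%, and 1 member had an unadjusted p below 0.05, beside 19.9% of all tested probe sets. With limma's array weights, calls were made in 2 of these comparisons: Ctsa at -0.41 (adjusted p = 0.0465) and a probe set of Ctsb at -0.26 (adjusted p = 0.0483) in the mixture against old controls, and Ctsh at 0.40 (adjusted p = 0.0354) in old against young controls.

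**Figure D1:**
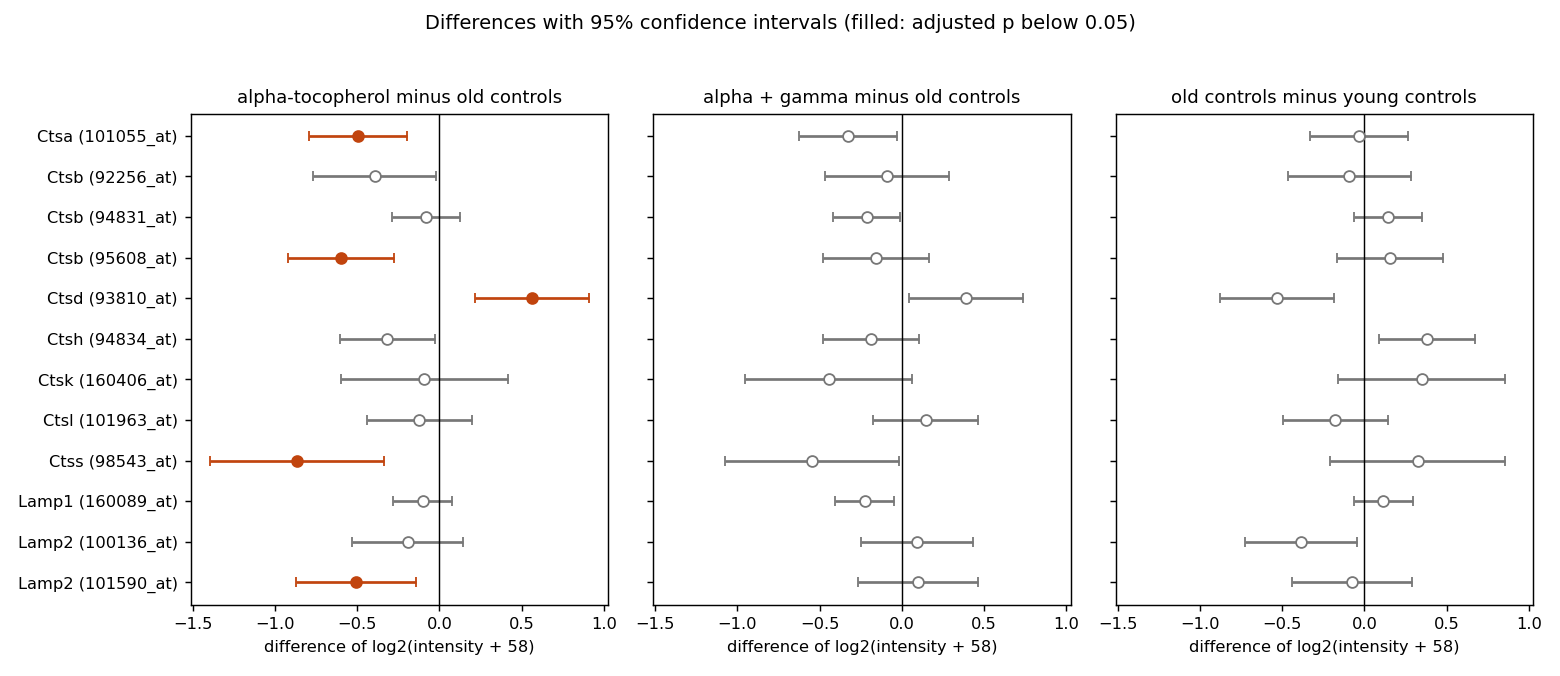
Differences in log2(intensity + 58) for the 12 tested member probe sets, by comparison, with 95% confidence intervals (5 animals per group) and filled points for adjusted p below 0.05. The 5 filled points of alpha-tocopherol against old controls are Ctsa, Ctsb (95608_at), Ctss and Lamp2 (101590_at) below 0 and Ctsd above 0.

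Ctsa encodes cathepsin A, a carboxypeptidase that also protects the lysosomal enzymes beta-galactosidase and neuraminidase 1. Its probe set (101055_at) read 2408, 1907, 2409, 2228 and 2623 in alpha-tocopherol hearts and 3184, 2741, 2819, 2471 and 1948 in alpha- plus gamma-tocopherol hearts. It read 3494, 3813, 2947, 2316 and 4119.6 in old controls and 3279.8, 2963, 3702, 3559 and 3292 in young controls. All 5 alpha-tocopherol hearts lay below every young control, while they overlapped with the old controls, of which 1 was low. The background of probe sets whose groups do not overlap was 11.2% in that comparison. Ctsa fell in alpha-tocopherol hearts relative to old controls by 0.50 ± 0.14 on the log2 scale (95% confidence interval -0.79 to -0.20, limma adjusted p = 0.0167). It fell relative to young controls by 0.53 ± 0.14 (-0.83 to -0.23, limma adjusted p = 0.0156). Without old control 5, the first of these calls was lost (-0.41, limma adjusted p = 0.0566). In alpha- plus gamma-tocopherol hearts the differences were -0.33 ± 0.14 from old controls (limma adjusted p = 0.177) and -0.36 ± 0.14 from young controls (limma adjusted p = 0.155). Old and young controls lay close together, with a difference of -0.03 (95% confidence interval -0.33 to 0.26). The group means ran upwards as alpha-tocopherol, the mixture, old controls and young controls, and no neighbours in that order differed past the threshold.

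Ctsd encodes cathepsin D, the major aspartic protease of lysosomes. Its probe set (93810_at) was the brightest of the members, with a mean at the 99.1th percentile of the array. It read 33735, 40195, 38448, 39997 and 36586 in alpha-tocopherol hearts and 37285, 32088, 34592, 31038 and 32689.6 in alpha- plus gamma-tocopherol hearts. It read 34559.7, 33842, 14145, 23691 and 27548 in old controls and 47247, 38165, 33013, 35588 and 32362 in young controls. Old control 3 was the lowest of the 20 arrays, and the old controls spread more widely than the other groups. In alpha-tocopherol hearts, 4 of 5 values lay above the highest old control. Ctsd rose in alpha-tocopherol hearts relative to old controls by 0.56 ± 0.17 (0.22 to 0.91, limma adjusted p = 0.0198), the only one of the 12 tested member probe sets above 0 in that comparison. Without old control 3 the difference was 0.35, still past the threshold (limma adjusted p = 0.0451). Of 13 alternative fits other than leaving out 1 animal, 9 kept the call. There the difference ran from 0.34 to 0.71, with limma adjusted p up to 0.305. In alpha- plus gamma-tocopherol hearts the difference from old controls was 0.39 ± 0.17 (limma adjusted p = 0.168), and 0.18 without old control 3 and young control 3. In old controls the difference from young controls was -0.53 ± 0.17 (-0.88 to -0.18), which missed the threshold (limma adjusted p = 0.0694). That difference passed when old control 1 was left out (-0.64, limma adjusted p = 0.0346) or old control 2 (-0.63, limma adjusted p = 0.0376), and was -0.36 without old control 3 and young control 3. Alpha-tocopherol hearts and young controls differed by 0.03 (95% confidence interval -0.32 to 0.38).

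Ctsb encodes cathepsin B, a cysteine protease with both endopeptidase and dipeptidase activity, and its 4 probe sets did not behave alike. The probe set 95608_at read 1150.3, 735, 844, 856 and 1274 in alpha-tocopherol hearts and 1067, 1340.4, 1289, 1841 and 1159 in alpha- plus gamma-tocopherol hearts. It read 1588, 1446, 1269, 1469 and 1612 in old controls and 1153, 1263, 1288, 1411 and 1477 in young controls. In alpha-tocopherol hearts 4 of 5 values were below the lowest old control, and the same 4 animals were below the lowest young control. It fell in alpha-tocopherol hearts relative to old controls by 0.60 ± 0.16 (-0.92 to -0.28, limma adjusted p = 0.0083), and the call was kept when any 1 of the 10 animals was left out. Relative to young controls the difference was -0.44 ± 0.16 (limma adjusted p = 0.0564).

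The brightest Ctsb probe set (94831_at) read 21194, 17719, 18785, 16478 and 19326 in alpha-tocopherol hearts, against 20916, 21781, 15648, 19549.9 and 21306 in old controls. These groups overlapped through most of their range, and the difference was -0.08 (95% confidence interval -0.29 to 0.13, limma adjusted p = 0.593). In alpha- plus gamma-tocopherol hearts it was -0.21 ± 0.10 relative to old controls (limma adjusted p = 0.198), and it was called at -0.30 (limma adjusted p = 0.0479) without old control 3 and young control 3. A dimmer probe set (92256_at) read 481, 499, 670.4, 564 and 431 in alpha-tocopherol hearts, against 684, 656, 802, 706 and 689.7 in old controls. There, 4 of 5 alpha-tocopherol hearts lay below the lowest old control, with a difference of -0.39 ± 0.18 that missed the threshold (limma adjusted p = 0.122). The remaining probe set (162271_f_at) was not tested. It read 89.6 to 651 in alpha-tocopherol hearts, 91.2 to 192 in the mixture, 73.7 to 416 in old controls and 55.1 to 343 in young controls. Of the Ctsb probe sets, then, 1 fell with alpha-tocopherol, 2 had differences below 0 that missed the threshold and 1 was too dim to test.

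Ctss encodes cathepsin S, a cysteine protease best known for cutting the invariant chain of MHC class II in antigen-presenting cells. Its probe set (98543_at) read 2220, 1005, 1124, 2244 and 1601 in alpha-tocopherol hearts and 2142, 2240.2, 1457, 1799 and 2269.7 in alpha- plus gamma-tocopherol hearts. It read 2564, 2197, 3806, 2977 and 3112 in old controls and 1735, 1934, 5046, 2097 and 1758 in young controls. Young control 3 was the highest of all 20 arrays, far above the other young controls, and the highest old control was number 3. The range over arrays, 5.02-fold, was the widest among the 12 tested member probe sets. Ctss fell in alpha-tocopherol hearts relative to old controls by 0.87 ± 0.26 (-1.40 to -0.33, limma adjusted p = 0.0191), the largest difference among the members in that comparison. The call was lost without alpha-tocopherol animal 2 (-0.72, limma adjusted p = 0.0573) or animal 3 (-0.75, limma adjusted p = 0.0597). In alpha- plus gamma-tocopherol hearts the difference from old controls was -0.55 ± 0.26 (limma adjusted p = 0.207), with 3 of 5 values below the lowest old control. Old controls differed from young controls by 0.32 ± 0.26 (limma adjusted p = 0.580), and by 0.51 ± 0.21 without young control 3 and old control 3.

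Some macrophage markers were lower where Ctss was lower, and others were not. Of 20 macrophage genes on the array 11 were bright enough to test and none was listed at 0. Their summed intensity was 23640 to 38525 in alpha-tocopherol hearts, 22865 to 41100 in the mixture, 36829 to 44954 in old controls and 31270 to 54843 in young controls, with the top value in young control 3. Of the 11, 5 were lower in alpha-tocopherol hearts than in old controls, against 22.4% of all named genes, and 1 was lower in the mixture, against 6.85%. Of the 5 calls 0 remained with the hybridization controls as covariate, 2 with 18S and 1 without old controls 1 and 4. Among the 5 were Lyz2 at -0.90 ± 0.26 (limma adjusted p = 0.0178) and C1qa at -0.66 ± 0.20 (limma adjusted p = 0.0215), which encode lysozyme and a complement chain. The first C1qb probe set was at -1.16 ± 0.22 (limma adjusted p = 0.0007), while the other C1qb probe set differed in sign. Mean log2 levels that did not follow were 11.64 for Cd14 in alpha-tocopherol hearts, against 11.50 in old controls, and 11.68 for Laptm5, against 11.56. C1qc was at 12.97 in alpha-tocopherol hearts and 13.03 in old controls. Young control 3 also stood apart in T cell genes, where its sum over 3 tested genes was 12048, against 1856 to 4164 on the other 19 arrays. The part of immune cells in the Ctss values was not tested.

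Ctsh encodes cathepsin H, an aminopeptidase. Its probe set (94834_at) read 2205, 2270.1, 2459, 1847 and 2779 in old controls, against 1437, 1661, 2185, 1794 and 1731 in young controls. In old controls 4 of 5 values lay above the highest young control, and the difference was 0.38 ± 0.14 (0.09 to 0.67), which missed the threshold (limma adjusted p = 0.126). In alpha-tocopherol hearts it ran from 1471 to 2149, with a difference from old controls of -0.32 ± 0.14 (limma adjusted p = 0.108), and in alpha- plus gamma-tocopherol hearts from 1713 to 2260, with a difference of -0.19 ± 0.14 (limma adjusted p = 0.450).

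Ctsl encodes cathepsin L, a broad endopeptidase whose loss in mice causes dilated cardiomyopathy. Its probe set (101963_at) ran from 6000 to 7605 in alpha-tocopherol hearts, 7244 to 9900 in alpha- plus gamma-tocopherol hearts, 6413 to 8547 in old controls and 6005 to 12884 in young controls. The groups overlapped in all 6 comparisons, and young control 3 was the highest array. The differences from old controls were -0.12 ± 0.15 in alpha-tocopherol hearts (limma adjusted p = 0.596) and 0.15 ± 0.15 in the mixture (limma adjusted p = 0.617).

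Ctsk encodes cathepsin K, a collagenase best known from osteoclasts. Its probe set (160406_at) ran from 555 to 1566 in alpha-tocopherol hearts, 628 to 971 in alpha- plus gamma-tocopherol hearts, 909 to 1855 in old controls and 612 to 1081 in young controls. The alpha-tocopherol hearts were scattered over nearly the whole range, and the top old control was far from the other 4. The mixture differed from old controls by -0.45 ± 0.24 (-0.95 to 0.06, limma adjusted p = 0.286), and old controls differed from young controls by 0.35 ± 0.24 (limma adjusted p = 0.512).

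Lamp1, a major glycoprotein of the lysosomal membrane, had the narrowest range of the tested members, 1.49-fold over 20 arrays. Its probe set (160089_at) ran from 27147 to 30483 in alpha-tocopherol hearts, 24219 to 27836 in alpha- plus gamma-tocopherol hearts, 26488 to 36152 in old controls and 25428 to 30804 in young controls. All groups overlapped. No comparison was called for Lamp1, and the lowest adjusted p was that of the mixture against old controls (-0.22 ± 0.09, limma adjusted p = 0.119).

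Lamp2 encodes the membrane protein whose splice forms serve chaperone-mediated autophagy and fusion of autophagosomes with lysosomes; the sources used here do not say which splice forms the 2 probe sets detect. The brighter probe set (101590_at) read 3939.6, 4650.1, 2934, 2832 and 3929 in alpha-tocopherol hearts and 4882, 4683, 6508, 5987 and 5682 in alpha- plus gamma-tocopherol hearts. It read 4145, 5050, 4166, 7424 and 5521 in old controls and 5716, 3962, 4512, 7088 and 6403 in young controls. Every mixture heart was above every alpha-tocopherol heart, and 4 of 5 alpha-tocopherol hearts were below the lowest old control and the lowest young control. It fell in alpha-tocopherol hearts relative to old controls by 0.51 ± 0.18 (-0.87 to -0.15, limma adjusted p = 0.0417), and relative to young controls by 0.58 ± 0.18 (-0.95 to -0.22, limma adjusted p = 0.0268). Old controls and the mixture both lay near young controls, with differences of -0.07 and 0.02. The call against old controls was lost when alpha-tocopherol animal 3 or 4 or old control 2, 4 or 5 was left out, at differences from -0.52 to -0.38 (highest limma adjusted p = 0.127). That call was kept in 5 of the 13 other alternative fits, with limma adjusted p up to 0.890. The call against young controls was lost without alpha-tocopherol animal 3 or 4 or young control 1, 4 or 5 (highest limma adjusted p = 0.0850).

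The dimmer Lamp2 probe set (100136_at) read 1011, 1204, 903, 1052 and 1083 in alpha-tocopherol hearts and 1239, 1374, 1149, 1519 and 1199.8 in alpha- plus gamma-tocopherol hearts. It read 1301, 1153, 1065, 1377 and 1156 in old controls and 1161, 1095, 2123, 2028 and 1842 in young controls. Young controls 3, 4 and 5 were high and the other 2 lay among the old controls. It fell in alpha-tocopherol hearts relative to young controls by 0.58 ± 0.16 (-0.92 to -0.24, limma adjusted p = 0.0200), a call lost without alpha-tocopherol animal 3 (limma adjusted p = 0.0519) or young control 3 (0.0612), 4 (0.0641) or 5 (0.0526). Relative to old controls the difference was -0.19 ± 0.16 (limma adjusted p = 0.415). Old controls differed from young controls by -0.38 ± 0.16 (limma adjusted p = 0.206).

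**Figure D2:**
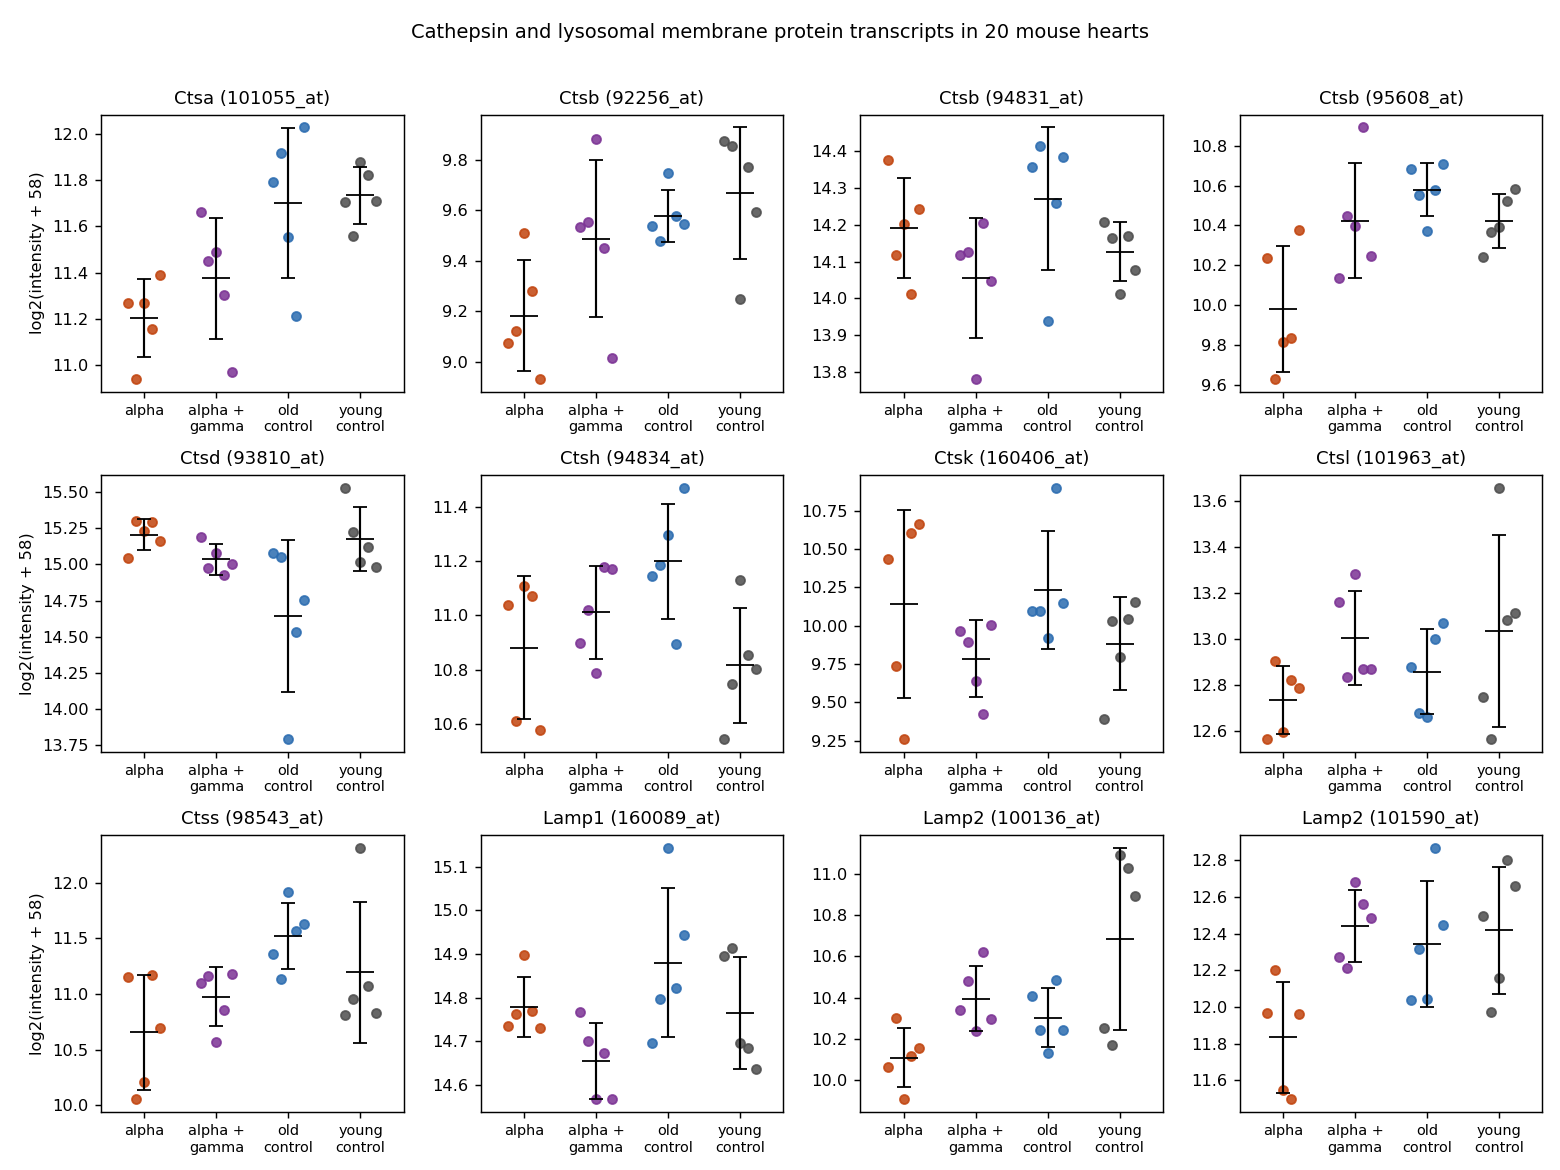
Intensity of member probe sets on each of the 20 arrays, on a log scale, by group, with points for animals and bars for the group mean of the log values. In Ctsa the 5 alpha-tocopherol points lie below the young controls, and in Lamp2 (101590_at) they lie below the mixture.

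In the mixture set against alpha-tocopherol alone, member differences were judged by their intervals, since 0 members were called by limma. The mixture arrays were also lower in hybridization controls, with a difference of -0.57 on the log2 scale, and in 18S, with -1.14 (exact permutation p = 0.0079 each). The largest was Lamp2 101590_at, at 0.61 ± 0.18 higher in the mixture (0.24 to 0.97, unadjusted p = 0.0022 by limma, adjusted p = 0.0976). It was the only member whose groups did not overlap there, against a background of 3.9% of probe sets. Ctsb 95608_at was at 0.44 ± 0.16 (0.12 to 0.77, limma adjusted p = 0.169). For the other members called with alpha-tocopherol, the difference was 0.17 for Ctsa (-0.13 to 0.47), 0.32 for Ctss (-0.21 to 0.85) and -0.17 for Ctsd (-0.52 to 0.18).

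The calls were examined in fits that held an array-wide control level as a covariate, since the alpha-tocopherol arrays were higher in both. Because they did not overlap with the other groups in either level, these fits cannot tell the level from the supplement. The losses below are therefore given as a description. With the hybridization controls held, 0 of the 5 calls of alpha-tocopherol against old controls remained, and with the 18S level held, 0 remained. All 5 kept their sign in both. With the hybridization controls the differences were -0.77 ± 0.24 for Ctsa (limma adjusted p = 0.0951), -0.71 ± 0.27 for Ctsb 95608_at (0.169), 0.71 ± 0.29 for Ctsd (0.200), -0.56 ± 0.45 for Ctss (0.552) and -0.53 ± 0.31 for Lamp2 101590_at (0.383). With 18S they were -0.51 ± 0.23 for Ctsa (limma adjusted p = 0.246), -0.26 ± 0.23 for Ctsb 95608_at (0.580), 0.54 ± 0.27 for Ctsd (0.305), -1.14 ± 0.40 for Ctss (0.139) and -0.09 ± 0.25 for Lamp2 101590_at (0.890). The Ctsb and Lamp2 differences were closer to 0 with 18S than without it, the Ctss difference was closer to 0 with the hybridization controls, and the standard errors were larger in each of these fits. Against young controls, the 3 calls were also lost with either covariate. With 18S, Lamp2 101590_at was at -0.12 ± 0.27 (limma adjusted p = 0.896), Lamp2 100136_at at -0.35 ± 0.27 (0.600) and Ctsa at -0.54 ± 0.24 (0.324). With the hybridization controls they were at -0.61 ± 0.29 (limma adjusted p = 0.298), -0.55 ± 0.27 (0.313) and -0.78 ± 0.23 (0.0768). In alpha-tocopherol against old controls the calls over all probe sets numbered 144 and 142 with the covariates, against 1619 without a covariate.

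**Figure D3:**
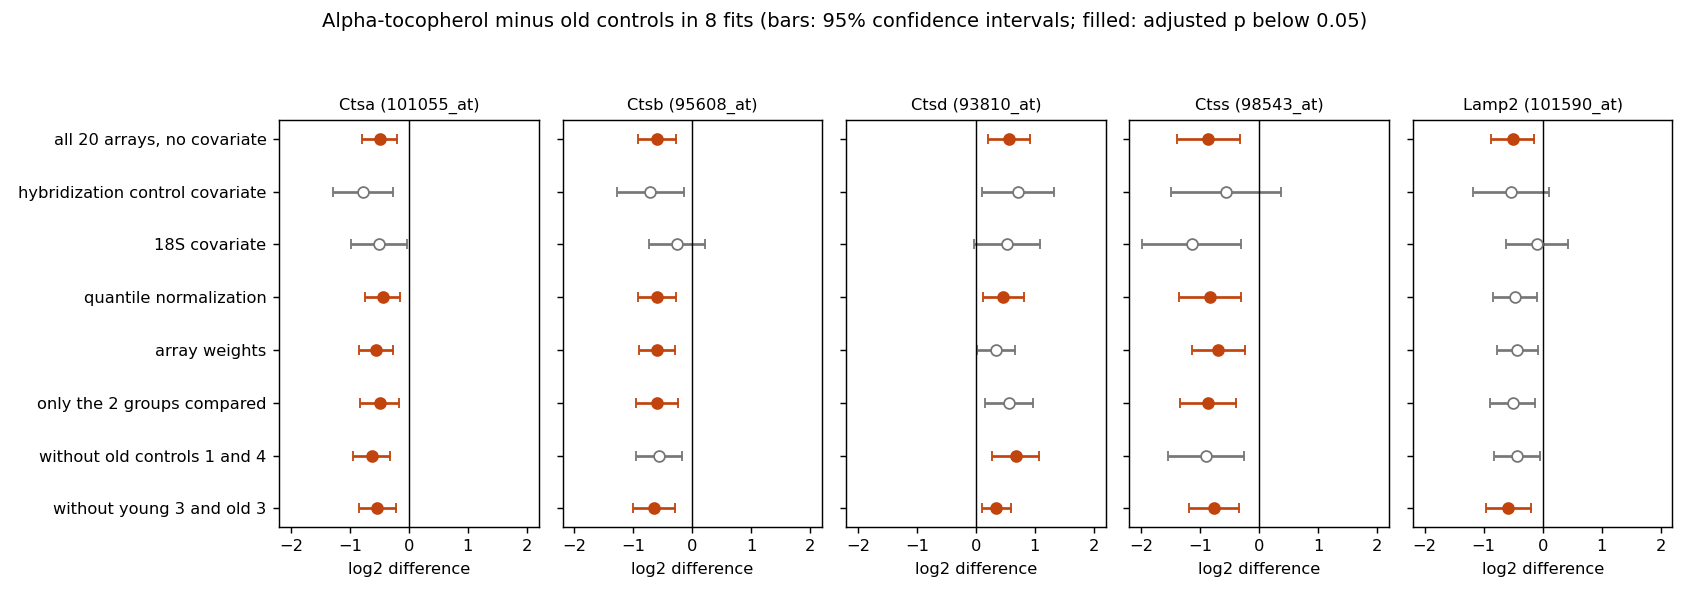
Log2 difference of each called member probe set, with its 95% confidence interval, as fitted and with other sample sets or covariates. With the hybridization control or 18S level as a covariate, the intervals widen, and all differences in alpha-tocopherol against old controls keep their sign.

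The strain labels of old controls 1 and 4 differ from the rest. Without these animals, alpha-tocopherol against old controls gave 2 called member probe sets, Ctsa at -0.63 and Ctsd at 0.67. Ctsb 95608_at (limma adjusted p = 0.0534), Ctss (0.0580) and Lamp2 101590_at (0.126) missed the threshold there.

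The rest of the lysosome was read from 7 gene lists with 90 tested genes, each gene at its brightest tested probe set. In alpha-tocopherol hearts against old controls 31 of the 90 were called, against 22.4% of all named genes. In that comparison 6 of 15 subunits of the vacuolar ATPase, the proton pump that acidifies lysosomes, fell and 0 rose, with a list median of -0.19 against -0.04 over all 5663 named genes. Among them were Atp6v1d at -0.84 ± 0.14 (limma adjusted p = 0.0002), Atp6v1g1 at -0.68 ± 0.12 (limma adjusted p = 0.0004) and Atp6v1c1 at -0.59 ± 0.16 (limma adjusted p = 0.0115). With either covariate 0 of these 6 calls remained, and without old controls 1 and 4 there were 3. Of 16 other lysosomal membrane proteins, 4 fell and 0 rose, including Cd164 at -0.86 ± 0.21 (limma adjusted p = 0.0057), Laptm4a at -0.64 ± 0.21 (limma adjusted p = 0.0331) and the tetraspanin Cd63 at -0.61 ± 0.11 (limma adjusted p = 0.0004). With either covariate 0 of these 4 remained.

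Other lysosomal hydrolases and their activators went both ways, with 4 higher and 6 lower of 23, and of these 10 calls Lgmn and Gaa remained with the hybridization controls and Lgmn with 18S. The largest were Arsa, which encodes arylsulfatase A, at -1.70 ± 0.37 (limma adjusted p = 0.0023), Glb1, beta-galactosidase, at -1.19 ± 0.39 (limma adjusted p = 0.0308), and Neu1, neuraminidase 1, at -1.05 ± 0.36 (limma adjusted p = 0.0416). These 3 calls were lost with either covariate, and those of Glb1 and Neu1 also without old controls 1 and 4 and without young control 3 and old control 3. Glb1 and Neu1 encode the enzymes that cathepsin A protects. Of 4 other cathepsins, Ctsc, the dipeptidyl peptidase that activates serine proteases of immune cells, fell by 0.85 ± 0.23 (limma adjusted p = 0.0119). In the same list a Ctse probe set with the ending _f_at rose by 0.47 ± 0.10 (limma adjusted p = 0.0027). Whether that probe set detects Ctse alone was not tested. The other tested Ctse probe set had the same sign and was not called. With the hybridization controls neither call remained, and with 18S that of Ctsc did. Of 3 tested cathepsin inhibitors limma called 0, and 1 had an unadjusted p below 0.05. Of 19 autophagy genes, 6 rose and 2 fell, among them the regulator Foxo3 at 0.62 ± 0.14 (limma adjusted p = 0.0037), the receptor Sqstm1 at 0.59 ± 0.15 (limma adjusted p = 0.0077) and the late endosome protein Rab7 at -0.60 ± 0.10 (limma adjusted p = 0.0002); with a covariate 0 to 1 of these 8 remained. Igf2r, the mannose 6-phosphate receptor that sorts hydrolases to lysosomes, rose by 0.70 ± 0.14 (limma adjusted p = 0.0011), alone of 10 sorting and control genes, and was not called with either covariate.

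The mixture against old controls gave fewer calls in these lists, against a background of 6.85% of named genes. Autophagy genes made up most of them: 6 of 19 rose and 0 fell, with a median of 0.31 against -0.02 over all named genes. They included Bnip3, a mitophagy receptor, at 1.01 ± 0.16 (limma adjusted p = 0.0011), Foxo3 at 0.78 ± 0.14 (limma adjusted p = 0.0024) and Sqstm1 at 0.65 ± 0.15 (limma adjusted p = 0.0133). Of these 6 calls 3 remained with the hybridization controls as covariate, 5 with 18S and 3 without old controls 1 and 4. The lists of other cathepsins, hydrolases, membrane proteins, proton pump subunits and sorting genes had 1 call each: Ctsc at -0.93 ± 0.23 (limma adjusted p = 0.0194), Lgmn, the asparaginyl protease legumain, at -0.66 ± 0.13 (limma adjusted p = 0.0036), Cd63 at -0.44 ± 0.11 (limma adjusted p = 0.0182), Atp6v1a at -0.44 ± 0.12 (limma adjusted p = 0.0310, with 1 of its other 2 tested probe sets of opposite sign) and Igf2r at 0.57 ± 0.14 (limma adjusted p = 0.0170). Of these 5, Lgmn was also called with either covariate and without old controls 1 and 4. The other 4 calls were lost without those animals, those of Ctsc, Cd63 and Atp6v1a also with the hybridization controls, and those of Atp6v1a and Igf2r also with 18S.

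In old against young controls, with a background of 5.39% of named genes, calls in these lists were 1 proton pump subunit and 3 autophagy genes. Atp6v1d rose by 0.56 ± 0.14 (limma adjusted p = 0.0166). Sqstm1 fell by 0.90 ± 0.15 (limma adjusted p = 0.0008), Bnip3 by 0.87 ± 0.16 (limma adjusted p = 0.0024) and Foxo3 by 0.60 ± 0.14 (limma adjusted p = 0.0135). All 4 calls remained with either covariate, and those of Atp6v1d and Foxo3 were lost without old controls 1 and 4. The same old controls serve in the supplement comparisons, so the opposite signs of these genes there are not independent. In the mixture against alpha-tocopherol, limma called 0 genes of these 7 lists, with a background of 0.459% of named genes. An unadjusted p below 0.05 was found for 17 of the 90 genes and for 15.9% of all tested probe sets.

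Against young controls, alpha-tocopherol hearts had calls in all 7 lists, with a background of 16% of named genes. Of 4 other cathepsins Ctsf fell by 0.51 ± 0.14 (limma adjusted p = 0.0130). The Ctse probe set with the ending _f_at rose by 0.33 ± 0.10 (limma adjusted p = 0.0361), and the other tested Ctse probe set had the opposite sign. Of 3 inhibitors, Cstb, which encodes cystatin B, fell by 0.82 ± 0.21 (limma adjusted p = 0.0120). Of 23 hydrolases 2 rose and 3 fell, with Arsa at -1.46 ± 0.37 (limma adjusted p = 0.0097) the largest. Of 16 membrane proteins 3 fell, with Cd164 at -0.76 ± 0.21 (limma adjusted p = 0.0178) the largest. Atp6v1g1 fell by 0.37 ± 0.12 (limma adjusted p = 0.0378), as 1 of 15 pump subunits, Igf2r rose by 0.66 ± 0.14 (limma adjusted p = 0.0028), as 1 of 10 sorting genes, and 3 of 19 autophagy genes rose while 3 fell. Of these 19 calls in the 7 lists Lgmn alone remained with the hybridization controls, and 0 remained with 18S. The mixture against young controls had 1 call each among other cathepsins, membrane proteins and sorting genes, 2 among hydrolases, 2 among autophagy genes, and 0 among inhibitors and pump subunits (1 and 0 with an unadjusted p below 0.05 by limma), with 5.56% of named genes called.

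**Figure D4:**
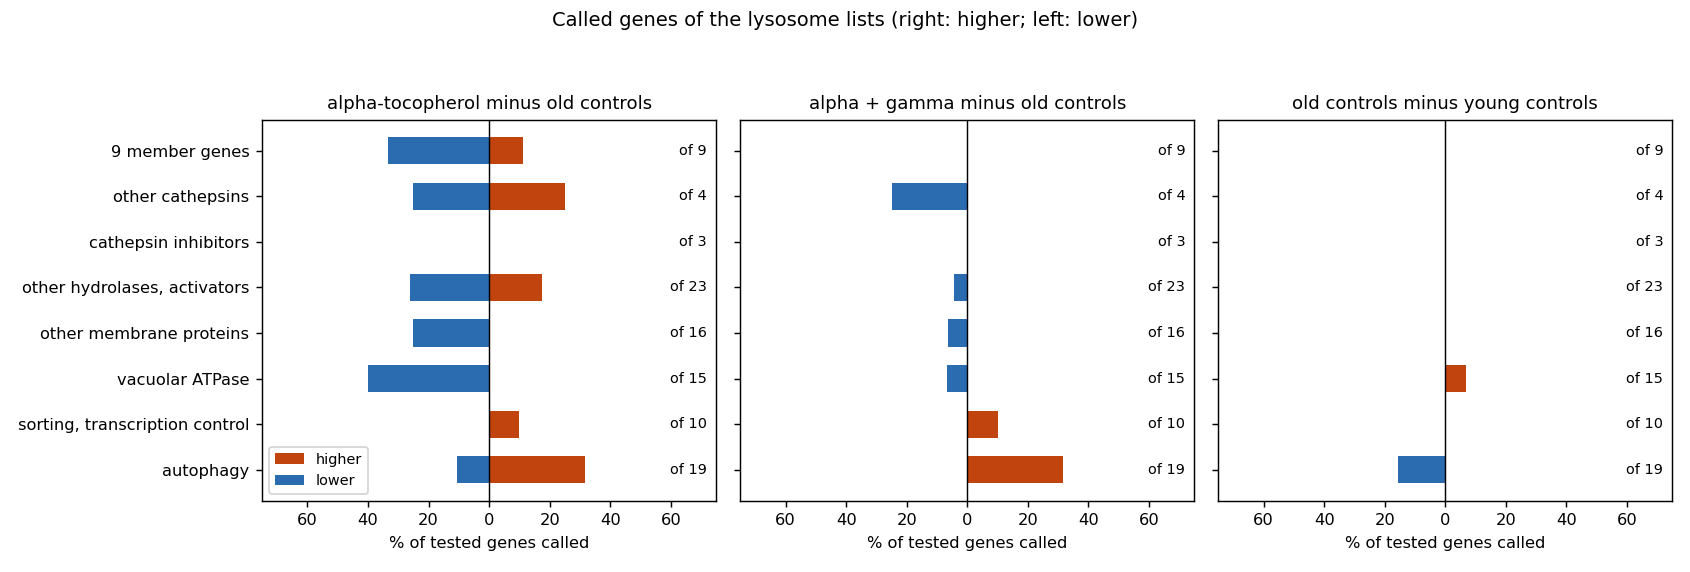
Genes called higher or lower (adjusted p below 0.05), out of the tested genes in each lysosome and autophagy list, by comparison. The proton pump list has 6 lower and 0 higher of 15 in alpha-tocopherol against old controls, and the autophagy list 6 higher and 0 lower of 19 in the mixture against old controls.

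Heart cell markers were counted in the same way, against 22.4% of all named genes called with alpha-tocopherol and 6.85% with the mixture. In alpha-tocopherol hearts against old controls, 7 of 12 fibroblast genes fell and 1 rose, and 4 of 10 cardiomyocyte genes rose. With the hybridization controls held, 1 of the 8 fibroblast calls and 0 of the 4 cardiomyocyte calls remained, and with 18S 0 of either. The median of the cardiomyocyte list was 0.19, and -0.08 with the hybridization controls, where 1 of the 4 called genes changed sign. In the mixture 4 of 12 fibroblast genes fell and 1 rose, and 0 of 10 cardiomyocyte genes were called by limma (2 with an unadjusted p below 0.05). Of 10 endothelial genes 2 fell with alpha-tocopherol and 3 with the mixture, and of 5 liver genes 2 fell with each. The sum of the 5 liver genes was 1954 to 4834 in alpha-tocopherol hearts and 2652 to 6500 in the mixture. It was 5111 to 16895 in old controls and 4860.5 to 12679 in young controls. Both endothelial calls with alpha-tocopherol were lost with either covariate. Of 3 tested T cell genes limma called 0 in either comparison (0 with an unadjusted p below 0.05). The sum of the 12 fibroblast genes was 67457 to 100683 in alpha-tocopherol hearts, 63152 to 96874 in the mixture, 86062 to 94137 in old controls and 78290 to 101874 in young controls. Their part in the member differences was not tested.

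Across the 20 arrays, the tested probe sets most like each member gene with a call were listed by Pearson correlation of log2 values. Each gene was taken at its brightest probe set. The list is a description over arrays that share groups and scaling. Shown are the 2 highest of 6694 to 6696 probe sets of other genes, so that high values come in part from this selection. Ctss ran most like H2-Ab1, which encodes a chain of MHC class II (r = 0.92, and 0.92 after group means were removed). Without young control 3 that correlation was 0.89. Next to Ctss stood Actr3, a subunit of an actin nucleator (r = 0.86, and 0.80 after group means were removed). With the value after removal of group means second, Lamp2 101590_at ran most like Rnf13 (r = 0.88 and 0.78) and Adh5 (0.84 and 0.76). Ctsd ran like Cops6 (r = 0.89 and 0.87) and Ascc1 (0.85 and 0.80). Ctsa ran like Rarres2 (r = 0.76 and 0.48) and Nde1 (0.76 and 0.62), and Ctsb 94831_at like Sparc (0.77 and 0.73) and Rhoc (0.75 and 0.85). Ctsb 94831_at was not called in alpha-tocopherol hearts against old controls, where Ctsb 95608_at was. These 2 Ctsb probe sets correlated at r = 0.29 over the 20 arrays.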

How the data were processed

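Heart RNA of 20 mice was measured, 1 Affymetrix murine array per animal. Biotin-labelled cRNA was made from poly(A) RNA of frozen hearts, per the labels' protocols. The deposited table holds linear intensity values that, from the values, the authors had scaled to a common level with software not given in the sources used here. Array medians of log2(intensity + 58) ran from 9.33 to 9.45, and no further scaling was applied.

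Of 12488 probe sets, 66 controls and the dimmest 40% of the other 12422 were left out, leaving 7453. Platform symbols were checked against RefSeq (GRCm38.p6), which changed 0 of 10817 matched. The model, run in limma 3.58.1 under R 4.3.3, had a mean for each group, used all 20 arrays, moderated variances with a robust trend and had 16 residual degrees of freedom. Tests were two-sided, with Benjamini-Hochberg adjustment over the 7453. Each animal counted as 1 sample; 0 pairs of arrays held identical values. The fit was tested on simulated data. Every member probe set was described. Of each of the 7 lysosome and autophagy lists, up to 3 called genes with the largest differences were named. The macrophage markers named were not picked by that rule. For each member gene with a call, the 2 most similar probe sets were named. The members, lists, tests and alternatives were chosen with earlier results of these data known.

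Tried as alternatives were another pseudocount, filter or scaling, array weights, variances without the trend, only the compared groups, a replicate block, 2 covariates, and fits without certain animals or without each animal in turn.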

Additional observations from a re-analysis of the deposited data

Results flagged for a closer look

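Within groups of 5 arrays, 3 values stood apart by Dixon's ratio, with a critical value of 0.71. The ratio is the gap to the nearest other array divided by the group's range, both taken on the log2 values. The readings given here are intensities, so the ratios do not follow from them directly. Of 52 groups checked, about 2.6 would be marked by chance, or 1 in 20. Old control 4 read 1855 for Ctsk, with the next old control at 1074.6 (ratio 0.769). Young control 3 read 5045.9 for Ctss, with the next young control at 2097.4 (ratio 0.824). Alpha-tocopherol animal 3 read 30483.4 for Lamp1, with the next at 27857.2 (ratio 0.777).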

How the results depend on the processing

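In alpha-tocopherol against old controls, limma's count of called member probe sets was 5, and 0 with the hybridization controls as covariate, 0 with 18S, 3 with array weights, 3 with the compared groups alone and 2 without old controls 1 and 4. Leaving out 1 animal gave 3 to 5. Against young controls the count of 3 became 1 with the hybridization controls and 0 with 18S, and 1 to 4 without 1 animal. The single call with the hybridization controls was Ctsb 92256_at (-1.03 ± 0.26, limma adjusted p = 0.0367). In old against young controls the count of 0 became 1 with array weights, and 0 to 1 without 1 animal. In the mixture against old controls it became 2 with array weights and 1 without young control 3 and old control 3. The causes were not tested. Of 104 fits of the 8 called values under the other alternatives 28 lost the call and 0 changed sign. Among 80 that left out 1 animal, 17 lost it. Each value had 13 of those other alternatives. Against old controls the call was kept in 11 for Ctsa, 10 for Ctsb 95608_at, 10 for Ctss, 9 for Ctsd and 5 for Lamp2 101590_at. Against young controls it was kept in 11 for Ctsa, 11 for Lamp2 101590_at and 9 for Lamp2 100136_at. Over all probe sets, alpha-tocopherol against old controls gave 1619 calls, and 144, 142 and 981 with the hybridization controls, with 18S and without old controls 1 and 4. Against young controls 1166 became 189 and 52 with the covariates. With array weights, 368 calls in old against young controls became 731, and 479 in the mixture against old controls became 858. The replicate numbers did not pair the samples: same-numbered arrays' deviations correlated at -0.0839 to 0.101 over 30 pairs, and 2 of 20 arrays correlated best with their own number. With the replicate block, the counts were 5 against old controls and 3 against young controls for alpha-tocopherol, and 0 in the other 4 comparisons. The number of arrays, 5 per group, limits the precision.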
